A study of Mus musculus with 32 samples.

Results

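The neuropeptide genes Npy, Sst and Trh were described across eye, brain and heart of sighted C3H mice, each set against control C3H mice of the same organ. They were found as all probes that the array's annotation assigns to these 3 symbols, which gave 4 of the 20794 probes of the array and 3 of its 9030 named genes. Npy had 1 probe (number 17432), Sst had 1 (number 16476) and Trh had 2 (numbers 8061 and 17977). Only Npy and Sst in eye, and the eye against brain difference of Npy with the ratio direction read here, passed a test adjusted over all genes.

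The tested RNA came from male mice labelled C3H sighted. The control RNA was a pool of 6 male mice labelled C3H.pde6b-, that is, C3H mice with the retinal degeneration allele of the rod phosphodiesterase gene. One set of mice gave the pools for brain and for heart, and another set gave the eye pool. The labels used here give no age, treatment or genotype of the sighted mice, and the design text of the series names a C3H seh mutant line that the sample labels do not name. Every array held both RNAs of 1 organ in 2 dyes, with 12 arrays for eye, 12 for brain and 8 for heart. Arrays were averaged in consecutive pairs with swapped dyes, and each pair counted as a replicate, so eye and brain had 6 replicates each and heart had 4. Nothing in the labels ties arrays to animals, so p-values measure only the spread between these replicates, part of which may be technical, and leave out the spread between control animals.

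All values compare sighted with control RNA within an organ, as a log2 ratio, so they carry no level of a gene, and the labelled organs could not be checked against levels of their markers. The direction of the deposited ratio is likely, not stated. It was read from 6 rod genes on the eye arrays, whose median ran from 4.98 to 5.76 on arrays that held the sighted RNA in Cy5, and from -5.20 to -4.06 on those that held it in Cy3. The dye effect of a gene, its mean over both orientations, correlated between eye and brain (Spearman's rho 0.431) and between eye and heart (0.394) over 6744 genes, which are not independent replicates, and this is the basis for using the same direction in all organs. Were that direction wrong in an organ, every sign given for it would turn. In whole organs, fewer cells that make a peptide, less of its RNA per cell and a larger share of RNA from other cells cannot be told apart. In eye this includes the RNA of rods.

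Neuropeptides are cut from larger precursors, stored in dense core granules and released to act on receptors of other cells. Npy encodes the precursor of neuropeptide Y, which is made by inhibitory interneurons of the forebrain, by hypothalamic neurons that drive feeding and by sympathetic neurons. Sst encodes the precursor of somatostatin, which marks a large class of inhibitory interneurons and, from the hypothalamus, restrains the release of growth hormone. Trh encodes the precursor of thyrotropin-releasing hormone, which from the hypothalamus stimulates the release of thyrotropin and prolactin from the pituitary. In the retina, neuropeptide Y and somatostatin are known from amacrine cells.

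The bases upstream of the 3 genes are shown because the Sst promoter holds the classic cyclic AMP response element. Each sequence is the 250 bases before the RefSeq transcript start (GRCm38.p6), given 5′ to 3′ on the strand of the gene, with capitals for TGACG on either strand, the core of that element. The arrays hold no measurement of these sequences.
Npy, chr6:49822460-49822709, plus strand: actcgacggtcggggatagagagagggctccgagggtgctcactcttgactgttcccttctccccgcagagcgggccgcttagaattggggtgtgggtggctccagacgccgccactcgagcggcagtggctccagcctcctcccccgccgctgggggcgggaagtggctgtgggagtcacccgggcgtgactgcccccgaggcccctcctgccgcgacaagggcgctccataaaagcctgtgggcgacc
Sst, chr16:23890845-23891094, minus strand: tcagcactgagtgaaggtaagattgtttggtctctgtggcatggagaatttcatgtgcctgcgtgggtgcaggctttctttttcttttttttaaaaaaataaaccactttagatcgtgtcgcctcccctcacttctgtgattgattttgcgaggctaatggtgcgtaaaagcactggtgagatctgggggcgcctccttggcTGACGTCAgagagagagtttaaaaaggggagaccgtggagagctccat
Trh, chr6:92244651-92244900, minus strand: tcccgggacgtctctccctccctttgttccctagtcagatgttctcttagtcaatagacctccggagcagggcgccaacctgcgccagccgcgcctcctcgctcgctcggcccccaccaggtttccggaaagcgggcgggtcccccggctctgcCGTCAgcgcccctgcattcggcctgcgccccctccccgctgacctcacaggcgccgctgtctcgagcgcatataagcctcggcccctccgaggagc
The whole element, TGACGTCA, reads the same on both strands and occurred only in the Sst window, at bases -48 to -41 from the start. It occurred in 1.55% of 32851 promoter windows of this length in the RefSeq table. The core TGACG, which overlaps that element in Sst, occurred also in the Trh window at bases -96 to -92 on the other strand, and in 17.8% of all windows. The letters TGACG were not in the Npy window. A match is a description of the letters and not a measured site.

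In the eye, Npy was lower in sighted mice in every replicate. Its log2 ratio was -0.87, -1.17, -0.46, -0.85, -0.50 and -0.43 in replicates 1 to 6. All 12 eye arrays gave the same sign once turned for the dye, with a deposited ratio of Cy5 over Cy3 that averaged -0.62 ± 0.41 with sighted RNA in Cy5 and 0.81 ± 0.34 with sighted RNA in Cy3 (SD, n = 6 each). Npy fell by 0.71 ± 0.30 on the log2 scale (SD, n = 6), or 1.64-fold, with a limma adjusted p of 0.00178. The 95% interval of the log2 ratio was -0.96 to -0.47. Of 15877 genes tested in eye, unnamed probes counted among them, 26.7% passed the threshold (Benjamini-Hochberg adjusted p of at most 0.05), and 10.9% passed as lower. Npy ranked 1291 by p among them. It passed under each of the 17 alternative settings tried, with adjusted p between 8.33e-05 and 0.0141.

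**Figure D1:**
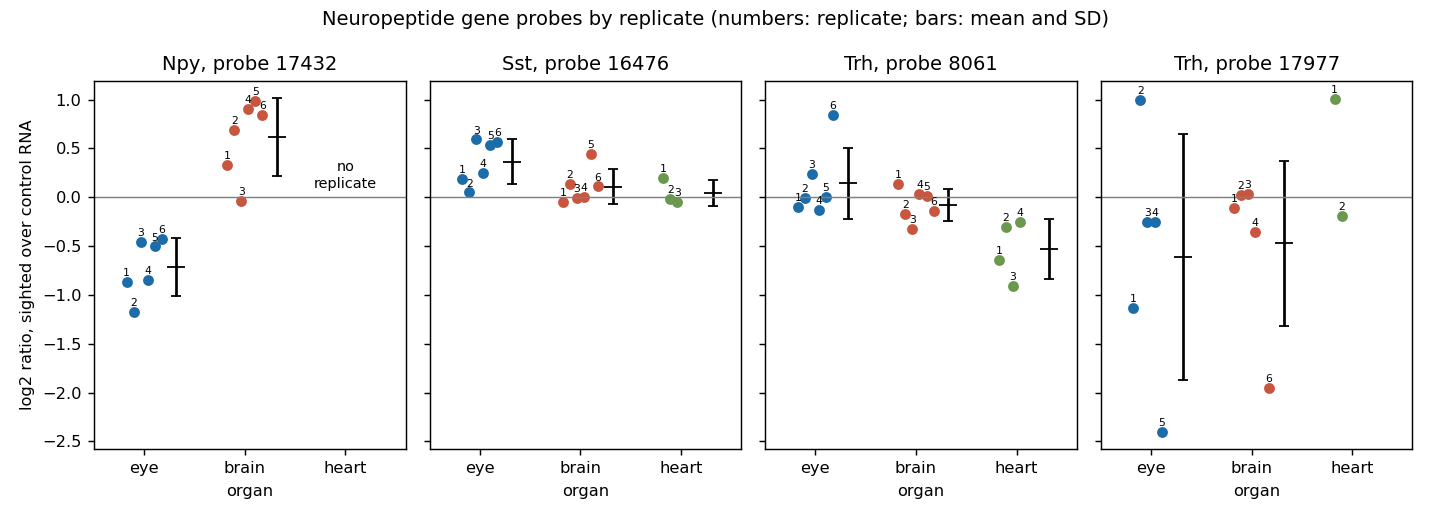
Log2 ratio of sighted over control RNA for the 4 probes of Npy, Sst and Trh in eye, brain and heart. Points are replicates, each the mean of 2 arrays of opposite dye, with the replicate number above. Black bars give the mean and SD where at least 3 replicates had a value. The 6 eye replicates of Npy lie between -1.17 and -0.43 and do not overlap the brain replicates, which lie between -0.04 and 0.99.

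In the brain the Npy values lay on the other side of 0. The log2 ratio was 0.33, 0.69, -0.04, 0.91, 0.99 and 0.84 in replicates 1 to 6, higher in 5 of 6. Of the 12 arrays, 11 had the sign of a higher value in sighted brain, and array 6 did not. The mean was 0.62 ± 0.40 (SD, n = 6), or 1.54-fold, with a 95% interval of 0.30 to 0.94 in limma. It did not pass (limma p = 0.0021, adjusted p = 0.959). Only 1 of 16114 genes passed in brain, 0.00621%, with 663 at an unadjusted p under 0.05, and Npy ranked 21 by p. Npy did not pass under any of the 17 alternatives, with adjusted p between 0.0862 and 0.979. Brain array 3 is labelled Cy5 in both of its channels, and without its replicate 2 the mean was 0.61. The source label of brain array 5 leaves out the organ, which its title gives, and without its replicate 3, the one below 0, the mean was 0.75 (limma adjusted p = 0.562). Replicates 4, 5 and 6, at 0.84 to 0.99, came from arrays on which 2.06, 5.63 and 4.36% of values were missing, against 1.38 to 2.04% for replicates 1 to 3, and the part of this in the result was not tested.

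The difference of Npy between the organs was tested in 1 limma fit of the eye and brain replicates. Eye minus brain was -1.33 ± 0.19 (moderated SE, n = 6 each), with a 95% interval of -1.73 to -0.94 and an adjusted p of 0.000205. In this comparison 17.4% of 15503 genes passed and 6.68% passed as lower, and Npy ranked 443 by p. The lowest brain replicate, -0.04, lay above the highest eye replicate, -0.43. How many of all genes were separated in this way was not counted. An exact two-sided permutation test of the 6 eye against the 6 brain values gave p = 0.00216, the smallest that 924 regroupings allow. The result depends on the direction of the ratio in brain, read from the dye effect. With the brain ratios turned, an alternative chosen after seeing the data, eye minus brain was -0.09 with a 95% interval of -0.49 to 0.31 and did not pass (limma adjusted p = 0.789). Eye and brain differ in their control mice as well as in the organ, and these cannot be told apart.

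**Figure D2:**
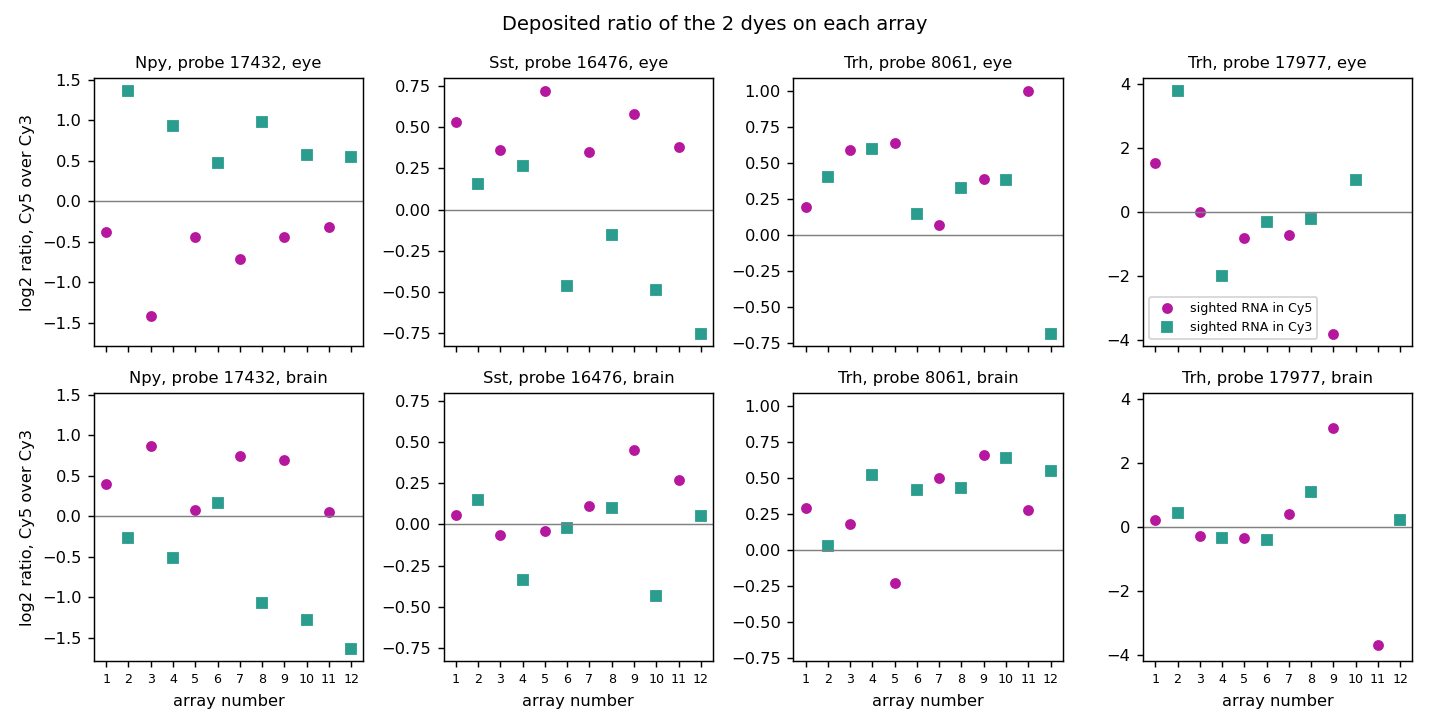
Deposited log2 ratio of Cy5 over Cy3 on each eye array (upper row) and brain array (lower row) for the 4 probes. Circles are arrays with sighted RNA in Cy5 and squares arrays with sighted RNA in Cy3, so a difference between sighted and control RNA sets circles and squares on opposite sides. For Npy the circles lie below the squares in eye and, apart from array 6, above them in brain, while circles and squares of Trh probe 8061 lie on the same side on most arrays.

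Sst was higher in sighted eyes in every replicate. Its log2 ratio was 0.19, 0.05, 0.59, 0.25, 0.53 and 0.57 in replicates 1 to 6. Sst rose by 0.36 ± 0.23 (SD, n = 6), or 1.29-fold, with a limma adjusted p of 0.0178 and a 95% interval of 0.16 to 0.57. Of all genes tested in eye, 15.8% passed as higher. Of the 12 arrays, 10 had this sign, and arrays 2 and 4, both with sighted RNA in Cy3, did not. The call was lost in limma without replicate 3 (0.32, adjusted p = 0.0569), replicate 5 (0.33, adjusted p = 0.0574) or replicate 6 (0.32, adjusted p = 0.051), the replicates with the highest values. It was kept without replicate 1 (adjusted p = 0.0292), replicate 2 (0.0108) or replicate 4 (0.0386). It was lost as well on the 6 arrays with sighted RNA in Cy3 alone, where the mean was 0.24 and the adjusted p = 0.266.

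Sst in brain stayed near 0. The log2 ratio was -0.05, 0.14, -0.01, 0.01, 0.44 and 0.11 in replicates 1 to 6, and replicate 5 stood apart. The mean was 0.11 ± 0.18 (SD, n = 6), with a limma adjusted p of 0.959 and a 95% interval of -0.07 to 0.28, and it was 0.04 without replicate 5. Eye minus brain was 0.26 ± 0.12 (moderated SE, n = 6 each), which did not pass (limma p = 0.0491, adjusted p = 0.169; exact permutation p = 0.0584), so Sst was not shown to differ between the organs. With the brain ratios turned it was 0.47 and passed (limma adjusted p = 0.0141).

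Npy and Sst had the same replicates at the top and at the bottom in eye. Replicates 3, 5 and 6 had Npy between -0.50 and -0.43 and Sst between 0.53 and 0.59. Replicates 1, 2 and 4 had Npy between -1.17 and -0.85 and Sst between 0.05 and 0.25. The replicate means of these groups did not overlap in either gene, but single arrays did. Sighted over control, Npy was -0.37 on array 1 (replicate 1) and -0.45 on array 5 (replicate 3). Sst was 0.53 on array 1 and 0.38 on array 11 (replicate 6). The groups were drawn after the values were seen and were not tested, and within them a relation cannot be tested with so few samples. The same split was there after every array was centred on its median, with Npy between -0.60 and -0.48 and Sst between 0.45 and 0.55 in replicates 3, 5 and 6, and Npy between -1.07 and -0.86 and Sst between 0.11 and 0.25 in the others. In brain the split was less clear: replicate 5 was highest in both genes, but replicate 4 had Npy at 0.91 and Sst at 0.01. Both genes were read on the same arrays, so whatever sets 1 array apart enters both.

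**Figure D3:**
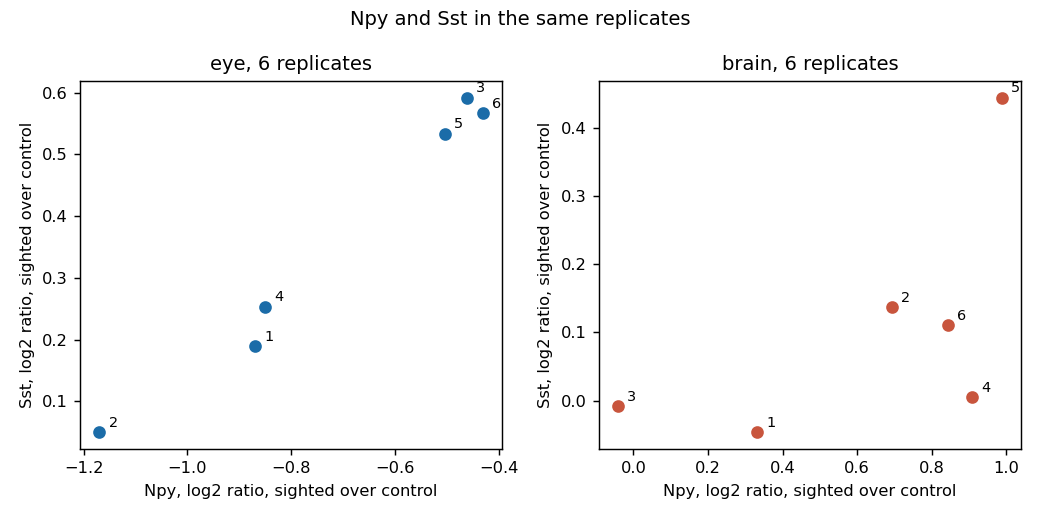
Log2 ratio of sighted over control RNA for Sst (vertical axis) against Npy (horizontal axis) in the 6 eye replicates (left) and the 6 brain replicates (right), with the replicate number beside each point and separate axis ranges. In eye, replicates 3, 5 and 6 lie at the upper right and replicates 1, 2 and 4 at the lower left.

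Trh had no called change, and its 2 probes did not follow each other. Probe 8061 had log2 ratios of -0.10, -0.01, 0.24, -0.13, 0.00 and 0.84 in eye replicates 1 to 6, where replicate 6 was the only one above 0.25. Its mean was 0.14 ± 0.37 in eye (SD, n = 6; adjusted p = 0.468) and -0.08 ± 0.16 in brain (SD, n = 6; adjusted p = 0.961) in a limma fit of single probes, in which 27.0% of probes passed in eye and 0.00516% in brain. In brain its replicates ran from -0.32 to 0.13. The deposited ratio of this probe was positive in 11 of 12 arrays in eye and in brain alike, whichever dye held the sighted RNA, and its dye component, the mean over both orientations, was 0.34 in eye and 0.35 in brain.

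The other Trh probe, 17977, spread far more widely. Its log2 ratios were -1.14, 1.00, -0.25, -0.25 and -2.40 in eye replicates 1 to 5, with none for replicate 6. In brain they were -0.11, 0.03, 0.03, -0.35 and -1.95 in replicates 1, 2, 3, 4 and 6. The SD was 1.26 in eye and 0.84 in brain (n = 5 each), larger than for 99.7 and 97.9% of probes. Of its 10 values on eye arrays, 7 equalled the log2 of a ratio of whole numbers up to 20 to 3 decimals, such as -2.000, 0.000 and 1.000, against 18.8% of all eye values. Of its 11 values on brain arrays, 1 did so, against 8.3% of all brain values. On eye arrays 4 of 12 values of Sst, 3 of 12 of Trh probe 8061 and 0 of 12 of Npy did so. On brain arrays these counts were 0, 1 and 2 of 12. The scanner intensities behind these ratios were not used here.

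Averaged over its probes, Trh had -0.11 ± 0.74 in eye and -0.13 ± 0.53 in brain (SD, n = 6 each), with limma adjusted p of 0.781 and 0.96. In brain replicate 5 this mean was 0.62, because probe 17977 had a value on only 1 of its arrays. The eye minus brain difference of Trh was 0.02 ± 0.33 (moderated SE), with a 95% interval of -0.69 to 0.73 and a limma adjusted p = 0.98, an interval wider than that of Npy or Sst.

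The heart gave few values for these genes. Npy had a value on 2 of 8 heart arrays, of which 1 lay at the ceiling of its array and 1 was -3.27, so no replicate could be formed and Npy was not tested in heart. Sst had 0.20, -0.01 and -0.05 in replicates 1 to 3 and none in replicate 4, with a mean of 0.04 ± 0.13 (SD, n = 3; limma adjusted p = 0.931). Trh probe 8061 was lower in 4 of 4 heart replicates, at -0.64, -0.30, -0.91 and -0.25, with a mean of -0.53 ± 0.31 (SD, n = 4), and did not pass (limma adjusted p = 0.561). The other Trh probe had 1.01 and -0.19 in the only 2 heart replicates it had. Limma called 0 of 12796 genes in heart, 0%, with 1021 at an unadjusted p under 0.05, and array 7 of replicate 4 had 61.6% of values missing.

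Receptors of the 3 peptides were hardly covered. Of 12 receptor genes listed, only Sstr3, a somatostatin receptor, had a probe. It had 0.28 ± 0.34 in eye (adjusted p = 0.119), -0.04 ± 0.27 in brain (adjusted p = 0.975; SD, n = 6 each) and -0.08 ± 0.18 in heart (adjusted p = 0.837; SD, n = 4) in limma. Its eye replicates ran from -0.13 to 0.69 and overlapped its brain replicates, from -0.31 to 0.23. None of the 3 closest relatives listed, Pyy, Ppy and Cort, had a probe.

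Of 10 other neuropeptide precursors tested in eye, 3 rose and 0 fell, beside 15.8% higher and 10.9% lower over all genes, and their median was 0.04 against 0.03 over all genes. Tac2, which encodes neurokinin B, rose by 0.53 ± 0.16 and was higher in 6 of 6 replicates, from 0.37 to 0.84. Nmb, the neuromedin B gene, rose by 0.49 ± 0.33, and Adcyap1, which encodes the peptide PACAP, rose by 0.38 ± 0.23 (SD, n = 6 each), each in 6 of 6 replicates. The limma adjusted p of these 3 genes lay between 0.00114 and 0.0158. With sighted RNA in Cy5 alone and in Cy3 alone, Tac2 had 0.61 and 0.45, Nmb 0.91 and 0.07, and Adcyap1 0.64 and 0.11. Tac1, the substance P gene, had 0.36 ± 0.33 and did not pass (adjusted p = 0.0551). Penk had -0.12, Gal -0.08 and Cck 0.04, and Npy lay below all 10 of them. In brain 0 of 10 passed, and their log2 ratios ran from -0.12 to 0.21, all closer to 0 than that of Npy in either direction. Pomc, listed with the pituitary hormone genes and not with these 10, had -0.62 ± 0.74 in brain (SD, n = 6; limma adjusted p = 0.959). In eye Pomc rose by 0.43 ± 0.14 (SD, n = 5; limma adjusted p = 0.00539), but had -0.09 with sighted RNA in Cy3 alone.

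Of 15 genes of peptide processing and of granules tested in eye, 3 rose and 1 fell, a share equal to the 26.7% called over all genes, with a median of 0.01. Scg5, which encodes the chaperone of prohormone convertase 2, rose by 0.59 ± 0.05, the smallest spread of these genes, from 0.52 to 0.65. The granin genes Chgb and Chga rose by 0.39 ± 0.16 and 0.29 ± 0.14. Pam, the enzyme that amidates the ends of neuropeptide Y and thyrotropin-releasing hormone, fell by 0.29 ± 0.17 and was lower in 5 of 6 replicates (SD, n = 6 each). The limma adjusted p of these 4 genes lay between 0.00014 and 0.0204, and those of Chga and Pam reached 0.0526 and 0.0629 when 1 replicate was left out. With sighted RNA in Cy5 alone and in Cy3 alone, Chga had 0.56 and 0.01 and Scg5 had 1.02 and 0.16. Chgb had 0.48 and 0.29 in these settings, and Pam had -0.06 and -0.52. Cpe, which trims precursors after cleavage, had 0.14 (adjusted p = 0.193), and Trhde, which degrades thyrotropin-releasing hormone, had -0.09 (adjusted p = 0.549). In brain 0 of 15 passed, with log2 ratios from -0.27 to 0.11.

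**Figure D4:**
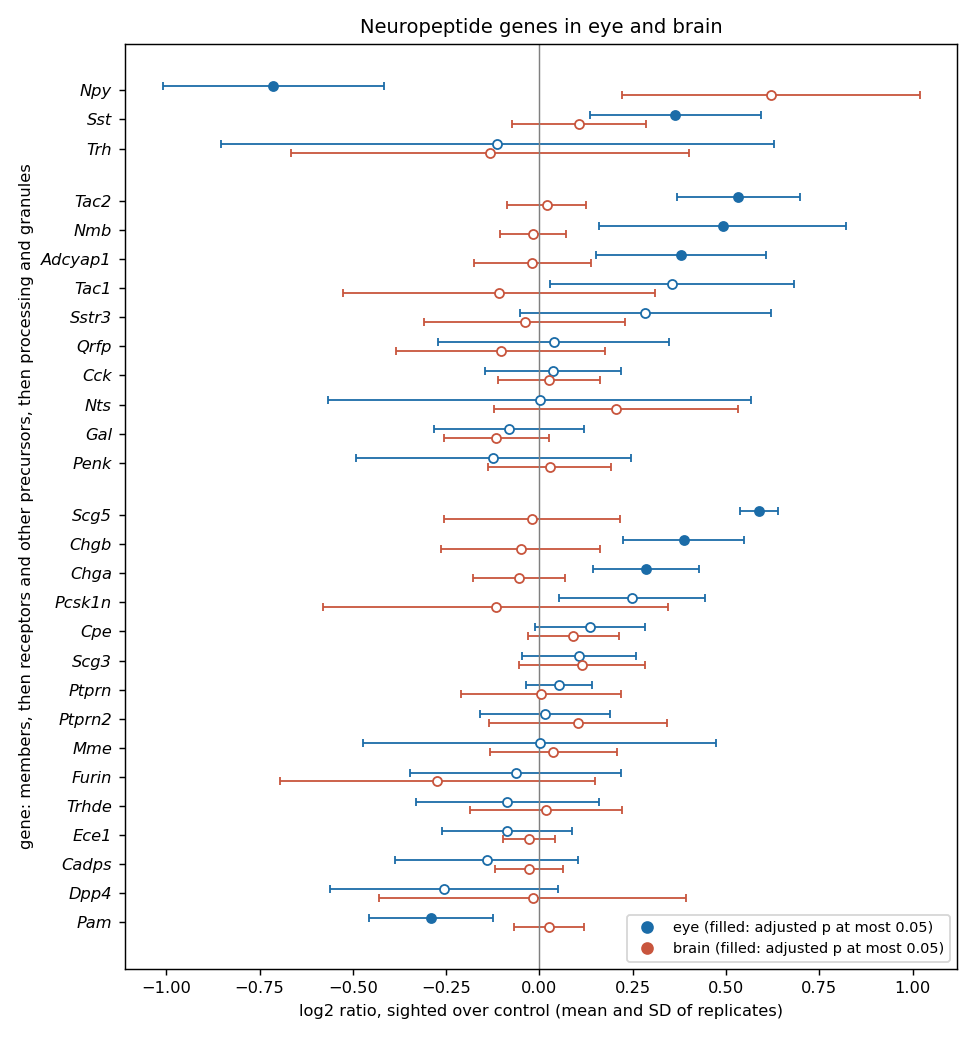
Log2 ratio of sighted over control RNA (mean and SD over replicates) for Npy, Sst and Trh, for the receptor gene Sstr3 and other neuropeptide precursors, and for genes of peptide processing and granules. Eye is drawn above brain for each gene, and filled points passed an adjusted p of 0.05 in limma. Npy is the lowest gene in eye and the highest in brain among those drawn, and would be the lowest in brain too if the brain ratios were turned. No brain point is filled.

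The thyroid and pituitary axes that Trh and Sst act on were read in the same fits. A link of these values to Trh or Sst was not tested. Of 6 thyroid axis genes tested in eye, 1 rose and 1 fell, beside 15.8% higher and 10.9% lower over all genes. Thrb, a thyroid hormone receptor, rose by 0.48 ± 0.15 and Dio3, which inactivates thyroid hormone, fell by 0.37 ± 0.25 (SD, n = 6 each; limma adjusted p 0.00149 and 0.0227). The call of Dio3 was lost when 1 replicate was left out, with adjusted p up to 0.0718. In brain 0 of 6 passed, and Dio2, which activates the hormone, had 0.03. Of 5 pituitary hormone genes tested in brain, 1 fell, beside 0.00621% called as lower over all genes. All 5 had a log2 ratio below 0, with a median of -0.62. The gene of growth hormone, Gh, fell by 1.67 ± 0.34 in log2 (SD, n = 6; limma adjusted p 0.0139, up to 0.127 when 1 replicate was left out), and Tshb, a thyrotropin subunit gene, had -0.12 (adjusted p = 0.959). Prl, the prolactin gene, did not pass, at -2.69 ± 0.81 (SD, n = 6; adjusted p = 0.0733). Pomc and Cga had -0.62 and -0.23 and did not pass (limma adjusted p = 0.959 each). The amount of pituitary in the brain samples was not tested.

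Markers of inhibitory interneurons, amacrine cells, hypothalamus and sympathetic neurons were set beside the peptide genes. These lists cover whole classes and not only the cells that make the peptides. Of 10 genes of inhibitory interneurons tested in eye, 2 rose and 2 fell, beside 15.8% higher and 10.9% lower over all genes. Pvalb rose by 0.45 and Calb1 by 0.26, while Gad1, which makes the transmitter GABA, fell by 0.31 and Reln fell by 0.28. Calb1 turned to -0.01 on arrays with sighted RNA in Cy3 alone, and Gad1, Reln and Calb1 lost their calls when 1 replicate was left out, with limma adjusted p up to 0.0611, 0.0977 and 0.0929. Of 6 amacrine cell genes, Pax6 fell by 0.34 but turned to 0.32 with sighted RNA in Cy5 alone, and 0 rose. The call of Pax6 was also lost when 1 replicate was left out, with limma adjusted p up to 0.0721. The median of the amacrine list ran from -0.43 to 0.00 over the eye replicates. In brain 0 of 10 interneuron genes and 0 of 6 amacrine genes passed, with medians of -0.07 and -0.04. Of 14 hypothalamus genes listed only 1, Nr5a1, was tested, at -0.02 in brain, so the share of hypothalamus in the brain samples was not tested. Of 3 sympathetic neuron genes tested in eye, 0 rose and 1 fell, beside 10.9% lower over all genes. Slc6a2, the noradrenaline transporter, fell by 0.30 ± 0.12 (SD, n = 6; limma adjusted p 0.0103). Dbh had 0.05 and Phox2a had -0.18, and neither passed (limma adjusted p 0.769 and 0.235). The part of any of these in the Npy and Sst values was not tested.

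Genes that respond to cyclic AMP and to neuronal activity fell more often than they rose in eye. Of 14 tested, 7 fell and 1 rose, with a median of -0.23, beside 10.9% lower and 15.8% higher over all genes. Egr1 fell by 1.65 ± 0.31, and Dusp1 and Junb fell by 1.10 ± 0.55 and 1.09 ± 0.38 (SD, n = 6 each), with limma adjusted p between 2.58e-05 and 0.00295. Crem, a cyclic AMP responsive regulator, had -0.01. In brain 0 of 15 passed, with a median of -0.11 and log2 ratios from -0.42 to 0.23.

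No gene stood out as moving like these over the replicates. After the mean of each organ was removed, the named genes with the highest Pearson correlation with Npy over the 12 eye and brain replicates were Gak, Mrpl12 and Xkr8, with r between 0.926 and 0.932. For Sst they were Gba2, Golt1b and Aimp2, with r between 0.9 and 0.904, and for Trh they were Ctnna3, Rhbg and Mtpn, with r between 0.908 and 0.923. Over all 7712 genes compared, the highest r of a gene with any other had a median of 0.92.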

How the data were processed

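The deposited values are log2 ratios of the 2 dyes within an array, per the file's values and the labels' protocols, which describe total RNA of single organs, reverse transcribed and labelled with Cy3 or Cy5. The sources used here name no scanner, background correction or normalization. Medians of single arrays ran from -0.06 to 0.54 (eye), 0.00 to 0.10 (brain) and 0.03 to 0.22 (heart), so not all arrays were centred, and their scaling is unknown. The number of arrays limits the precision.

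Values repeated at the top of an array above 15 (4170 in all) were set missing. Probes were named from GEO's platform annotation: 12771 with 1 symbol, 0 with several and 8023 with none. Probes of a gene were averaged per array. The sign was turned on arrays whose Cy3 channel held the sighted RNA, and 2 consecutive arrays of opposite dye were averaged, both being needed. A gene could miss 1 replicate. Pairs were read from the array numbers. With dye means removed, arrays of 1 pair correlated on average at 0.081 (eye), 0.00327 (brain) and -0.0207 (heart).

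Replicates of an organ were tested against 0 with limma 3.58.1 in R 4.3.3, two-sided, with Benjamini-Hochberg adjustment over all genes at 0.05, and eye minus brain in 1 fit of both. Alternatives changed the centring, scaling, dye, missing value, ceiling and probe rules, the pairing and the replicates used. The fits were tested on simulated data. The members and gene lists were chosen with earlier results of these data known. Named genes are the members, all receptors, up to 3 called members of a list by size, or the 2 with the smallest p, Gh and Prl, and the 3 genes most like each member; other list genes were named after their values were seen, and lists of other brain regions and rods are left out of the text.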

Additional observations from a re-analysis of the deposited data

Results flagged for a closer look

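Npy differed between the organs in the test of the difference itself, in which 17.4% of 15503 genes passed. Eye minus brain was -1.334, with all 6 eye replicates below all 6 brain replicates, and was -0.093 with the brain ratios turned. Such separation was not counted over all genes. For Sst in brain, replicate 5 stood apart at 0.444, with the other 5 between -0.046 and 0.137. For Trh probe 17977 in brain, replicate 6 stood apart at -1.952, with the other 4 between -0.354 and 0.0305. For the mean of the Trh probes in heart, replicate 1 stood apart at 0.1832, with the other 3 between -0.2472 and -0.2343. Of 12 groups of replicates looked at for such a value, 3 had one, where chance gives about 1 in 20 groups of normally spread values. The groups are not independent, since the mean of the Trh probes was looked at beside the probes themselves. No excess can be read from this count.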

How the results depend on the processing

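Npy kept its sign and its side of the threshold in eye (17 alternatives, -0.84 to -0.62), in brain (17, 0.47 to 0.77, not passed) and in eye minus brain (20, -1.58 to -1.09). The exception was turning the sign of the brain ratios, chosen after seeing the data, which gave eye minus brain -0.093 for Npy, no longer passed, 0.47 for Sst, now passed, and -0.24 for Trh. It had no value in heart or in a fit of all 3 organs. With sighted RNA in Cy5 alone, where the dye effect does not cancel, 6580 genes passed in eye and 736 in brain, Sst eye minus brain passed at 0.36, and Trh was 0.006 in eye, 0.089 in brain, 0.078 in heart and -0.083 in eye minus brain. With Cy3 alone 1327 genes passed in brain, and Sst was 0.24 in eye, no longer passed, and -0.50 in heart. Probe 8061 alone gave Trh 0.14 in eye and probe 17977 alone -0.14 in eye minus brain, where centred arrays gave -0.016. In brain, where 1 gene passed, 6 did with every array and a dye term, 6 with the pair as a random block added, 2 with arrays centred and scaled, 2 with a value required in every replicate and 0 with ceiling values kept. Eye minus brain had 2695 genes past the threshold, and 1544 in a fit of all 3 organs. The cause of these shifts was not tested. Leaving out 1 replicate at a time gave Sst 0.3186 to 0.427 in eye, its call lost without replicate 3, 5 or 6, and -0.03225 to 0.09125 in heart. It gave Trh -0.3034 to 0.1054 in eye, -0.2822 to 0.05065 in brain and -0.1715 to 0.2373 in eye minus brain, and 0 to 1 genes in brain. Averaging the pairs per probe first, also chosen after seeing the data, gave Trh -0.23 in brain, -0.31 in heart and 0.12 in eye minus brain, against -0.13, -0.13 and 0.02, none passed, and left Npy and Sst as they were.

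Array pairs of eye and brain share only a number: their deviations correlated between -0.0197 and 0.0184, and 2 of 6 were highest with their own number. A replicate block on that number gave eye minus brain -1.33 for Npy (limma adjusted p 0.00215) and 0.26 for Sst (adjusted p 0.168), with 2182 genes past the threshold, and changed no call of the 3 genes. Signal over background could not be read from ratios, so no limit from dim spots can be given.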
